A study of Mus musculus with 9 samples.

Results

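The genes described here encode the 4 TEAD transcription factors (Tead1, Tead2, Tead3 and Tead4), the coactivators YAP and TAZ (Yap1 and Wwtr1) and the TEAD-binding repressor VGLL4 (Vgll4). They were found by gene name in the deposited table, which held all 7 of them among 20087 named genes. Polyadenylated RNA was sequenced from B6D2F1 mouse embryos that had been given short interfering RNA (siRNA) by injection at the zygote stage and were collected at E2.75, when the mouse embryo is a morula. One group received siRNA against both histone deacetylase genes Hdac1 and Hdac2 (Hdac1/2 cKD), a second received siRNA against Sin3a, whose protein is the backbone of a corepressor complex containing HDAC1 and HDAC2 (Sin3a KD), and the third received a nonspecific control siRNA (NC, labelled wild type). Each group had 3 libraries, and 60 embryos were pooled for each library, so every value is a mean over embryos and over the inner and outer cells within them. The labels name siRNA and no mutant allele, and they do not say whether the libraries of a group came from separate collections. The p-values therefore measure the spread between these libraries.

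TEAD proteins bind DNA but activate transcription only with a coactivator, and YAP and TAZ are the coactivators best known for this role. In the Hippo pathway the kinases LATS1 and LATS2 phosphorylate YAP and TAZ, which keeps them out of the nucleus. VGLL4 competes with YAP and TAZ for TEAD proteins. In the mouse morula, YAP is nuclear in outer cells, where TEAD4 with YAP or TAZ drives trophectoderm genes such as Cdx2 and Gata3, and cytoplasmic in inner cells, where the Hippo pathway is active. Messenger RNA levels do not show where these proteins are in the cell or whether they are phosphorylated.

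Values are normalised counts, which are gene-level counts that the authors scaled with DESeq2. Whether 1 factor served all genes of a library was not established. Summed values came to 11.9 M to 13.5 M normalised counts per library, and the estimated depth was 8.38 M to 17.0 M reads. Of the genes in the table, 13.2% to 28.4% were listed at 0 in a library. NC replicate 3 had the lowest estimated depth and the highest share of genes at 0, and it stood apart on the first principal component, so the calls of the 7 genes and the list counts against NC are also given without it where it changes them. Hdac1 was at 16.9% of its NC mean in Hdac1/2 cKD embryos and at 34.3% in Sin3a KD embryos, Hdac2 at 13.3% and 90.1%, and Sin3a at 138% and 29.0%. Both knockdown groups thus had less Hdac1 messenger RNA than NC. All 12 morula markers were detected in each group, and their summed level was 38255 to 40952 in Hdac1/2 cKD, 49714 to 54221 in Sin3a KD and 54259 to 59390 in NC libraries. Markers of cumulus and granulosa cells, which surround the oocyte, were summed over the 9 of 13 in the table. Their sums were far lower, at 101 to 120, 87.6 to 100.4 and 32.3 to 75.3 in the same order of groups. Every knockdown library thus lay above every NC library. The 4 tested ones had a median log2 fold change against NC of 1.32 in Hdac1/2 cKD and 0.77 in Sin3a KD. The filter for testing asked for a minimum value in 3 or more libraries, which knockdown libraries alone could supply. Foxl2, Cyp11a1 and Col1a1 had NC means of 6.38, 6.56 and 7.04, below that minimum, while Star averaged 24.5 in NC. These medians therefore cannot separate a shift of the markers from the filter's choice of genes. The marker Cyp19a1 was at 0 in every NC library, but not in every library of either knockdown group. Oocyte markers summed to 327 to 374, 339 to 370 and 264 to 350, and two-cell stage markers to 149.6 to 375, 191 to 233 and 105 to 260. No tested cumulus, oocyte or two-cell marker passed the limma test in any comparison. Between 0 and 2 of each list had an unadjusted p below 0.05, beside 23.9% to 30.3% of all tested genes. Of the 12 morula markers, 8 passed as lower in Hdac1/2 cKD and 4 in Sin3a KD against NC, and none as higher. Over all tested genes, 15.6% and 7.96% passed in these comparisons. Without NC replicate 3 the count for Sin3a KD was 2 lower. Between the knockdowns, 2 morula markers were higher and 8 lower in Hdac1/2 cKD, beside 17.3% of all tested genes. The part of other cells in the results was not tested.

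The 4 TEAD genes are paralogs, so their sequences show how far reads can be told apart. Within the 60-base stretch of the DNA-binding TEA domain below, read from GENCODE vM21 coding sequences (GRCm38), 46 bases are the same in all 4 genes. Capitals mark the 14 positions at which the genes differ.
Tead1: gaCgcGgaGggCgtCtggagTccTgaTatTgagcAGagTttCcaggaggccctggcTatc
Tead2: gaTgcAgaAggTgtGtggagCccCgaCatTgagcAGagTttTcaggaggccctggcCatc
Tead3: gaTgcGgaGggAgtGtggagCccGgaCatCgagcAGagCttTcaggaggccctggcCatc
Tead4: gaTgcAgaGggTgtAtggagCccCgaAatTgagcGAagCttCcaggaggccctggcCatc
Over the whole coding sequence, identity between pairs of TEAD genes ran between 65.9% for Tead2 with Tead3 and 71.4% for Tead3 with Tead4. Yap1 and Wwtr1 were 59.2% identical. Stretches of 31 bases that a gene's transcripts share with any other gene made up 0.387% of those of Tead1, 0.607% of Tead2, 1.02% of Tead3, 0.796% of Tead4, 3.07% of Yap1, 0.21% of Wwtr1 and none of Vgll4. The pair with most in common among the TEAD genes, Tead3 and Tead4, had 29 such stretches in common.

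Among the TEAD genes, Tead4 fell and Tead2 rose in Hdac1/2 cKD embryos, and Tead3 rose in both knockdowns. Tead4 (GRCm38 chromosome 6, 128224288 to 128300823, reverse strand) encodes the TEAD factor that the mouse embryo needs to form trophectoderm. Its normalised counts were 2606, 2568 and 2685 in Hdac1/2 cKD libraries, 4376, 3724 and 3395 in Sin3a KD libraries and 5126, 3743 and 3823 in NC libraries. All Hdac1/2 cKD values lay below every value of the other groups, and Sin3a KD and NC overlapped. Means were 2619.5 ± 59.8 in Hdac1/2 cKD, 3832 ± 499 in Sin3a KD and 4231 ± 777 in NC (SD, n = 3 each). The log2 fold change of Hdac1/2 cKD against NC was -0.68 (SE 0.13, limma with Benjamini-Hochberg adjustment over 13343 genes, adjusted p = 0.0035). Within sequencing lanes that held both groups it was -0.53 on lane 2 and -0.51 on lane 3. Against Sin3a KD the log2 fold change was -0.54 (SE 0.13, limma adjusted p = 0.0109), and -0.41 within lane 3. With lane as a factor the adjusted p of the comparison with Sin3a KD was 0.0655, and without Sin3a KD replicate 1 it was 0.0615. For Sin3a KD against NC the fitted log2 value was -0.14 with a 95% interval of -0.41 to 0.14 (limma adjusted p = 0.564), and 0.01 without NC replicate 1, the highest library.

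Tead2 (chromosome 7, 45215753 to 45233644, forward strand) encodes a TEAD factor that is active in the early mouse embryo. It had 279, 299 and 359 normalised counts in Hdac1/2 cKD libraries, 55.1, 69.3 and 103 in Sin3a KD libraries and 127, 68.6 and 73.8 in NC libraries. The lowest Hdac1/2 cKD library lay well above the highest library of either other group, and Sin3a KD and NC overlapped. Means were 312 ± 41.5, 75.7 ± 24.5 and 89.8 ± 32.3 (SD, n = 3 each), in the same order of groups. Tead2 was 3.57-fold higher in Hdac1/2 cKD than in NC embryos (log2 1.83, SE 0.31, limma adjusted p = 0.00162). The difference was 2.06 on lane 2 and 2.27 on lane 3. Against Sin3a KD, Tead2 was 4.19-fold higher in Hdac1/2 cKD (log2 2.07, SE 0.31, limma adjusted p = 0.00059). No change was detected in Sin3a KD against NC, where the 95% interval of -0.90 to 0.43 leaves room for a change in either direction (log2 -0.23, limma adjusted p = 0.694), and the sign turned to 0.04 without NC replicate 1. Cd37, which overlaps Tead2 on the opposite strand, had at most 6 normalised counts in any library.

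Tead3 (chromosome 17, 28331671 to 28350817, reverse strand) encodes a TEAD factor known from the placenta. It had 249, 196 and 135 normalised counts in Hdac1/2 cKD libraries, 219, 162 and 256 in Sin3a KD libraries and 97.2, 76.6 and 33.6 in NC libraries. Every knockdown library lay above every NC library, and the knockdown groups overlapped. Means were 193 ± 57.2 in Hdac1/2 cKD, 212 ± 47.3 in Sin3a KD and 69.1 ± 32.5 in NC (SD, n = 3 each). Tead3 was 2.94-fold higher in Hdac1/2 cKD than in NC (log2 1.56, SE 0.37, limma adjusted p = 0.0129), and 3.27-fold higher in Sin3a KD than in NC (log2 1.71, SE 0.37, limma adjusted p = 0.0155). Between the knockdowns the log2 difference was -0.15, with a 95% interval of -0.95 to 0.65 (limma adjusted p = 0.833). The NC library with the least Tead3 was replicate 3, the shallowest one. Without it the log2 fold changes were 1.11 for Hdac1/2 cKD (adjusted p = 0.0276) and 1.26 for Sin3a KD (adjusted p = 0.0324). Within lanes, the values for Hdac1/2 cKD were 1.52 and 1.98, and for Sin3a KD 2.56 on lane 3. Leaving out a knockdown library took the adjusted p past 0.05 in 3 cases, namely 0.061 without Hdac1/2 cKD replicate 1, 0.0642 without Sin3a KD replicate 1 and 0.0774 without Sin3a KD replicate 3.

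Tead1 (chromosome 7, 112679318 to 112906807, forward strand) encodes the TEAD factor best known from heart muscle. Its normalised counts were 1302, 1561 and 1349.7 in Hdac1/2 cKD libraries, 1389.6, 1517 and 1169 in Sin3a KD libraries and 1274, 1028 and 869 in NC libraries. All Hdac1/2 cKD values exceeded the NC values, by little for NC replicate 1, while Sin3a KD overlapped with both other groups. The means were 1404 ± 138, 1358 ± 176 and 1057 ± 204 (SD, n = 3 each), in that order of groups. The log2 fold change was 0.42 in Hdac1/2 cKD against NC (SE 0.15, limma adjusted p = 0.0784) and 0.37 in Sin3a KD against NC (limma adjusted p = 0.153), so neither passed. Without NC replicate 3, the lowest library, these values were 0.29 and 0.24. Between the knockdowns it was 0.05, with a 95% interval of -0.27 to 0.38. The comparison of Hdac1/2 cKD with NC passed with libraries scaled to equal totals (adjusted p = 0.0206), with lane as a factor (0.0487), when NC replicate 1 and Sin3a KD replicate 1, each alone on its lane, were left out (0.0449), and without NC replicate 1 (0.0277).

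Of the coactivators, Wwtr1 (chromosome 3, 57455649 to 57575910, reverse strand), which encodes TAZ, fell in Hdac1/2 cKD embryos and was lower there than in Sin3a KD embryos, while no change was detected in Yap1 (chromosome 9, 7931999 to 8004596, reverse strand). Wwtr1 had 807, 943 and 948 normalised counts in Hdac1/2 cKD libraries, 2001, 2054 and 1877 in Sin3a KD libraries and 1605, 1532 and 1489 in NC libraries. The 3 groups did not overlap, with Hdac1/2 cKD lowest, NC in the middle and Sin3a KD highest. Means were 899 ± 79.9 in Hdac1/2 cKD, 1977 ± 90.8 in Sin3a KD and 1542 ± 58.8 in NC (SD, n = 3 each). Wwtr1 in Hdac1/2 cKD was at 0.582 of its level in NC (log2 -0.78, SE 0.11, limma adjusted p = 0.0005), and at 0.454 of its level in Sin3a KD (log2 -1.14, SE 0.11, limma adjusted p = 2.47e-05). In Sin3a KD against NC the log2 value was 0.36 with a 95% interval of 0.12 to 0.59, and the adjusted p of 0.0626 missed the threshold. That adjusted p was 0.0466 when genes were kept by a mean of at least 50, and 0.0185 with libraries scaled to equal totals. The difference of Hdac1/2 cKD from NC was -0.81 on lane 2 and -0.65 on lane 3, and the difference from Sin3a KD was -1.05 on lane 3.

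Yap1 had 4260.4, 4058 and 4076 normalised counts in Hdac1/2 cKD libraries, 3483, 3478 and 4038 in Sin3a KD libraries and 4324, 3731 and 3666 in NC libraries. The NC values spanned the range of Hdac1/2 cKD and overlapped with Sin3a KD. Against NC the log2 fold change was 0.08 in Hdac1/2 cKD (95% interval -0.13 to 0.30, limma adjusted p = 0.619) and -0.09 in Sin3a KD (95% interval -0.31 to 0.12, limma adjusted p = 0.624). The sign of the Sin3a KD value turned with libraries scaled to equal totals. Between the knockdowns the values did not overlap, but the log2 difference of 0.18 did not pass (95% interval -0.04 to 0.39, limma adjusted p = 0.262).

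Vgll4 (chromosome 6, 114860628 to 114969994, reverse strand) differed between the knockdowns. It had 601, 600.1 and 657 normalised counts in Hdac1/2 cKD libraries, 1315, 983 and 1174 in Sin3a KD libraries and 861, 756 and 623 in NC libraries. All Sin3a KD values lay above the rest, and Hdac1/2 cKD overlapped with NC. Means were 619.5 ± 32.7 in Hdac1/2 cKD, 1157 ± 166 in Sin3a KD and 747 ± 120 in NC (SD, n = 3 each). In Hdac1/2 cKD, Vgll4 was at 0.539 of its level in Sin3a KD (log2 -0.89, SE 0.15, limma adjusted p = 0.00147). Against NC, Vgll4 was 1.55-fold higher in Sin3a KD (log2 0.63, SE 0.15, limma adjusted p = 0.023), and the log2 value in Hdac1/2 cKD was -0.26 with a 95% interval of -0.59 to 0.07 (limma adjusted p = 0.286). Without NC replicate 1 that value was -0.15. Without NC replicate 3 it was -0.38, and all Hdac1/2 cKD values then lay below the NC values. The call in Sin3a KD against NC was lost without NC replicate 3 (adjusted p = 0.0704), without Sin3a KD replicate 1 (0.113) or replicate 3 (0.0883), and with lane as a factor (0.11). Within lane 3 the log2 difference was 0.79.

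**Figure D1:**
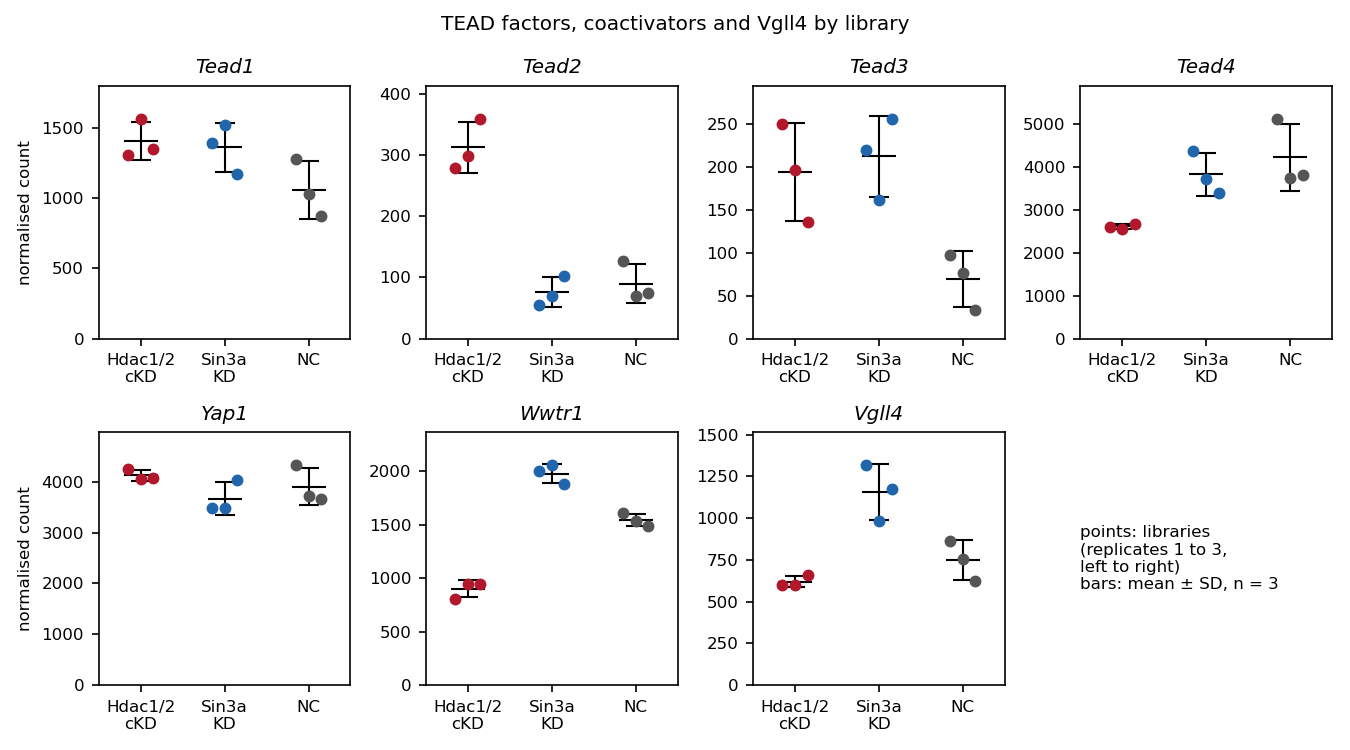
Normalised count of each gene (vertical axes, starting at 0) in the 3 libraries of each group, with points for libraries and bars for the mean ± SD (n = 3). Wwtr1 separates the 3 groups without overlap, Tead2 is high in Hdac1/2 cKD with a mean of 312 against 75.7 in Sin3a KD and 89.8 in NC, and Yap1 overlaps between each knockdown and NC.

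Counted over the 7 genes, Hdac1/2 cKD against NC had 2 higher (Tead2 and Tead3), 2 lower (Tead4 and Wwtr1) and 3 that did not pass, where 15.6% of all tested genes were called (7.81% higher and 7.8% lower). In 5 of the 7 genes the values of Hdac1/2 cKD and NC did not overlap, against 33.1% of all tested genes. Sin3a KD against NC had 2 higher (Tead3 and Vgll4) and none lower, against 7.96% of all tested genes called (3.6% higher and 4.36% lower), and 3 of the 7 did not overlap, against 27.1%. At an unadjusted p below 0.05, 4 of the 7 passed in Sin3a KD against NC, beside 23.9% of all tested genes. Hdac1/2 cKD against Sin3a KD had 1 higher (Tead2) and 3 lower (Tead4, Wwtr1 and Vgll4), against 17.3% of all tested genes called (8.49% higher and 8.78% lower), and 5 of the 7 did not overlap, against 39.7%. The median log2 fold change of the 7 genes was 0.08, 0.36 and -0.15 in these 3 comparisons, beside 0.03, 0.03 and 0.01 over all tested genes. Both comparisons with NC use the same NC libraries, so they are not independent. The counts for Hdac1/2 cKD stayed at 4 without NC replicate 3, and that for Sin3a KD against NC became 1, which is Tead3.

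**Figure D2:**
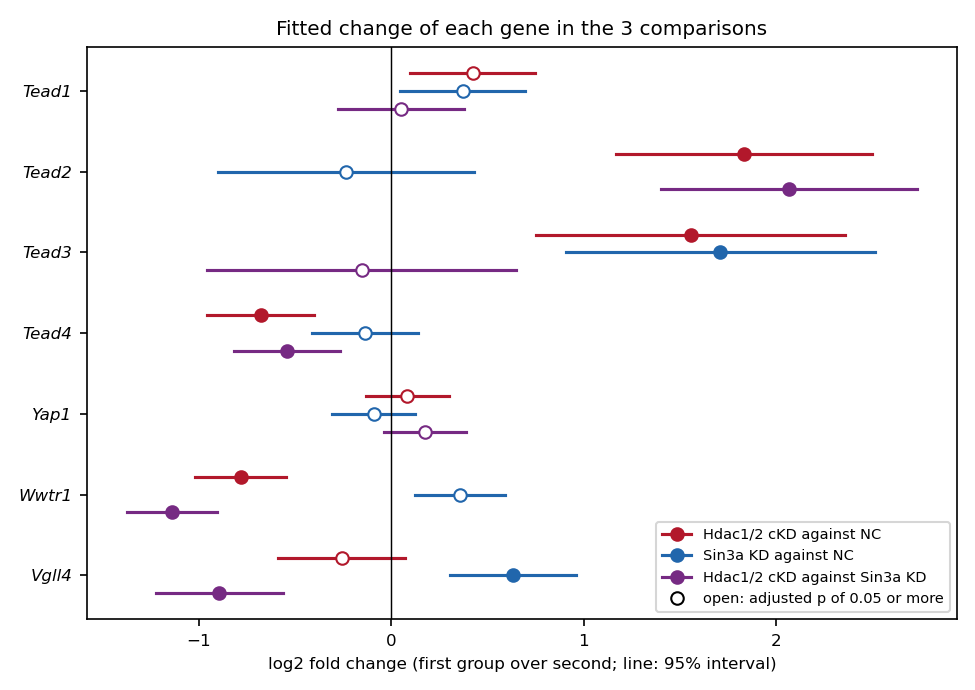
Fitted log2 fold change (horizontal axis, first group over second) of each gene in the 3 comparisons, with lines for 95% intervals and filled points for an adjusted p below 0.05. Wwtr1 lies at -0.78 for Hdac1/2 cKD and 0.36 for Sin3a KD, Tead3 at 1.56 and 1.71, and the intervals of Yap1 include 0 in each comparison.

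Levels of different genes were compared per kilobase of merged exons. Tead4 was highest in every group, at 728 ± 16.6 normalised counts per kilobase in Hdac1/2 cKD, 1065 ± 139 in Sin3a KD and 1176 ± 216 in NC (SD, n = 3 each). In NC the order after Tead4 was Yap1 (422), Wwtr1 (323), Vgll4 (138), Tead1 (77.9), Tead2 (18.8) and Tead3 (10.3), and only Tead2 and Tead3 overlapped among neighbours. In Hdac1/2 cKD the order was the same, at 446, 188, 115, 103, 65.2 and 28.8 per kilobase, and only Vgll4 and Tead1 overlapped. Sin3a KD had Wwtr1 (414) and Yap1 (396), which overlapped, then Vgll4 (214), Tead1 (100.1), Tead3 (31.6) and Tead2 (15.8). Divided by the longest transcript in place of merged exons, Vgll4 had rank 3 and Wwtr1 rank 4 in all 3 groups, and Yap1 had rank 2 in Sin3a KD as well, so the places of these genes depend on the length used.

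The makeup of the TEAD messages shifted away from Tead4 in Hdac1/2 cKD embryos. Of the summed level per kilobase, Tead4 made up 78.7% ± 0.971 in Hdac1/2 cKD, 87.7% ± 1.36 in Sin3a KD and 91.7% ± 0.82 in NC (SD, n = 3 each), and the 3 groups did not overlap. The share of Tead2 was 7.04% ± 0.83, 1.35% ± 0.574 and 1.43% ± 0.236, that of Tead3 3.12% ± 0.96, 2.64% ± 0.762 and 0.788% ± 0.306, and that of Tead1 11.2% ± 1.14, 8.28% ± 1.01 and 6.08% ± 0.526, in the same order of groups. The TEAD sum was 926 ± 13.3 per kilobase in Hdac1/2 cKD, 1213 ± 139 in Sin3a KD and 1283 ± 240 in NC, and every Hdac1/2 cKD sum lay below every sum of the other groups. Of the coactivator sum, Wwtr1 made up 29.7% ± 2.43 in Hdac1/2 cKD, 51.1% ± 3.27 in Sin3a KD and 43.4% ± 1.35 in NC. These shares depend on the length used. By the longest transcript Wwtr1 made up 19.7%, 37.8% and 30.8% of the coactivator sum, and Tead3 4.93%, 4.25% and 1.29% and Tead4 74.7%, 84.9% and 90.1% of the TEAD sum, in the same order of groups.

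**Figure D3:**
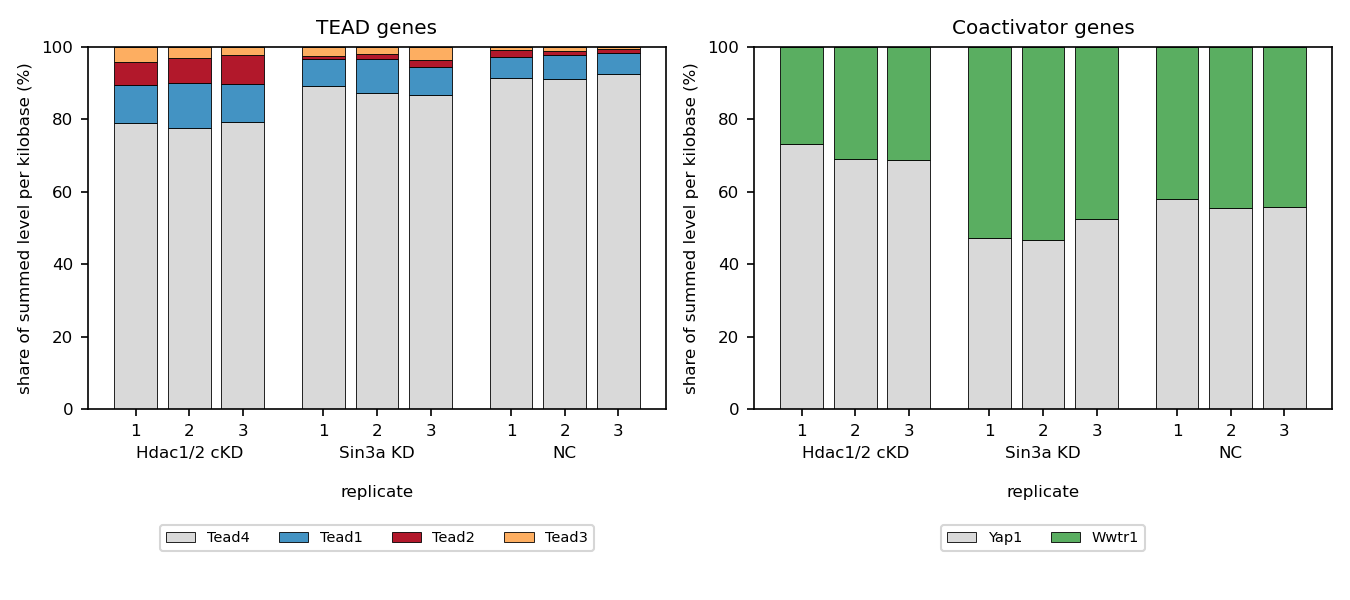
Share (%) of each TEAD gene in the TEAD sum (left) and of Yap1 and Wwtr1 in the coactivator sum (right), both per kilobase of merged exons, with 1 bar per library. Tead4 takes 77.5% to 79.3% in Hdac1/2 cKD, 86.6% to 89.2% in Sin3a KD and 91.1% to 92.6% in NC libraries.

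Ratios between 2 genes of the same library, taken after adding 1 to each value, depend little on a factor shared by all genes of that library. The log2 ratio of Wwtr1 to Yap1 was -2.40, -2.10 and -2.10 in Hdac1/2 cKD libraries, -0.80, -0.76 and -1.11 in Sin3a KD libraries and -1.43, -1.28 and -1.30 in NC libraries. The 3 groups did not overlap, and the group means differed from NC by -0.86 in Hdac1/2 cKD and by 0.45 in Sin3a KD. The log2 ratio of Tead2 to Tead4 was -3.22, -3.10 and -2.90 in Hdac1/2 cKD libraries, -6.29, -5.73 and -5.03 in Sin3a KD libraries and -5.32, -5.75 and -5.68 in NC libraries, a difference from NC of 2.51 for Hdac1/2 cKD and of -0.10 for Sin3a KD. Tead3 to Tead4 differed from NC by 2.23 in Hdac1/2 cKD and 1.84 in Sin3a KD, and Tead1 to Tead4 by 1.1 and 0.51, in each case without overlap. The ratio of summed Yap1 and Wwtr1 to Vgll4 differed from NC by 0.15 in Hdac1/2 cKD, where groups overlapped, and by -0.58 in Sin3a KD, where they did not. The overlap rests on NC replicate 3, without which the difference was 0.23 and Hdac1/2 cKD and NC did not overlap. An exact two-sided permutation test of 3 against 3 libraries cannot give a p below 0.1, and 12 of the 15 tests (5 ratios in 3 comparisons) reached it, with an adjusted p of 0.125, so none could pass 0.05. Reaching it means that the groups did not overlap, which held for 27.1% to 39.7% of single tested genes in these comparisons. No such share was computed for other pairs of genes. The ratios reuse the values of the genes described above, so they are not separate support.

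Promoter sequences, taken from RefSeq (GRCm38.p6) as 250 bases before and 50 after a start site, were present for 5 of the 7 genes in 8 windows. They were searched on both strands for GGAATG, the core of the sequence that TEAD proteins bind, because these genes are themselves parts of a TEAD pathway. Windows of Wwtr1, Vgll4, Tead3 and Yap1 held it, 6 of the 8 in all, and that of Tead2 did not, beside 14.7% of 32851 mouse promoter windows of the same length. Windows of the same gene overlap, so they do not count separately. CCAAT and TATAAA, a pair of common promoter motifs that neither contain GGAATG nor lie within it, were in none of the 8 windows, beside 37.4% and 13.6% of all promoters. The windows of 4 genes whose level changed are printed 5′ to 3′ on the gene's strand, with GGAATG or its reverse complement CATTCC in capitals.
Wwtr1, chr3:57575861-57576160, reverse strand: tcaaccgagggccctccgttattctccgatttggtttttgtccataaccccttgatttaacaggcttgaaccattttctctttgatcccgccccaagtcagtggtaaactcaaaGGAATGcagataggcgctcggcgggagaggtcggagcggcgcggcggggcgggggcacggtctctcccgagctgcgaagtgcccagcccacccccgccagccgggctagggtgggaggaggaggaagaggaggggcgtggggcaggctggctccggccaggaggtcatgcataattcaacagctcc
Vgll4, chr6:114969154-114969453, reverse strand: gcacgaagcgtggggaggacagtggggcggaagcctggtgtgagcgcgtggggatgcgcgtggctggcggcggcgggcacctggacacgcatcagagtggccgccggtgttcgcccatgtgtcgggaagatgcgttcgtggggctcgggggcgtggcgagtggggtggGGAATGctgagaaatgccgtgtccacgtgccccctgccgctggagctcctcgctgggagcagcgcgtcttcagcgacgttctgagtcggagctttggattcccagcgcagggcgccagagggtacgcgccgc
Tead3, chr17:28350551-28350850, reverse strand: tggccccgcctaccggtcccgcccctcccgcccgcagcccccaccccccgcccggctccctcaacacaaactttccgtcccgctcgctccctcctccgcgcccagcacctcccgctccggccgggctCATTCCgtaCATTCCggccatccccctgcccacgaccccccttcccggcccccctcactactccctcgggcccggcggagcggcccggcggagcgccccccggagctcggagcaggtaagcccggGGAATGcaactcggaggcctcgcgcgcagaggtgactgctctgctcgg
Tead2, chr7:45215542-45215841, forward strand: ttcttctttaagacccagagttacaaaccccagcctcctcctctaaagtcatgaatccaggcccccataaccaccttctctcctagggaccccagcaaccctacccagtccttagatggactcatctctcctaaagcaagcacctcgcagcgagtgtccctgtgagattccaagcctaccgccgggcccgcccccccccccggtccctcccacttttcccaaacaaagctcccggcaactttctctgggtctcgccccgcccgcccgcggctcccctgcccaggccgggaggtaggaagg
The match in Wwtr1 starts 136 bases before the start site, and the match in Vgll4 82 bases before it. Tead3 has 2 matches 123 and 114 bases before this start site and another at base 3 from it. Of the 3 Tead3 windows the printed one held the most matches, and another held none. The 4 printed windows held 20, 34, 34 and 13 CG pairs, in the order printed, where the median over all promoters was 7. A match in letters is a description of the window and not a binding site.

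Upstream of the coactivators, the list of 22 Hippo kinases, adaptors and scaffolds had 2 higher and 7 lower in Hdac1/2 cKD against NC, 2 higher and 3 lower in Sin3a KD against NC, and 4 higher and 6 lower in Hdac1/2 cKD against Sin3a KD. Over all tested genes 15.6%, 7.96% and 17.3% were called in these comparisons. Without NC replicate 3 the counts against NC were 3 higher and 8 lower in Hdac1/2 cKD and 1 higher and 3 lower in Sin3a KD. For Hdac1/2 cKD they were 0 higher and 5 lower without trend and robust moderation, and 1 higher and 5 lower without the 2 libraries with a lane to themselves. For Sin3a KD without those libraries, 1 gene was lower and none higher. The list's median log2 fold change was -0.17, -0.02 and -0.12 in these comparisons, beside 0.03, 0.03 and 0.01 over all tested genes. Mob1b, a LATS coactivator, averaged 1675 ± 120 in Hdac1/2 cKD and 2588 ± 203 in NC (log2 -0.63, limma adjusted p = 0.00271). Amot, a junctional scaffold that holds YAP out of the nucleus, had a log2 fold change against NC of -0.98 in Hdac1/2 cKD (limma adjusted p = 0.000394) and -0.66 in Sin3a KD (limma adjusted p = 0.0106). Wwc1, which encodes the LATS activator KIBRA, fell to 194 ± 37.6 in Sin3a KD, against 622 ± 220 in NC (log2 -1.64, limma adjusted p = 0.00297), and was higher in Hdac1/2 cKD than in Sin3a KD (log2 2.05, limma adjusted p = 0.000101). Ajuba, a LIM protein that inhibits LATS kinases, averaged 1477 ± 236 in Sin3a KD and 819 ± 189 in NC (log2 0.86, limma adjusted p = 0.0101). Frmd6, a FERM-domain gene of the pathway, was lower in Hdac1/2 cKD, at 283 ± 2.35, than in Sin3a KD, at 615 ± 19.4 (log2 -1.12, limma adjusted p = 0.000225). The calls of Amot and Ajuba in Sin3a KD against NC were lost without trend and robust moderation, with lane as a factor, without the 2 libraries with a lane to themselves and without Sin3a KD replicate 3, and that of Ajuba also without Sin3a KD replicate 1, with an adjusted p of up to 0.163 for Amot and 0.131 for Ajuba. That of Wwc1 against NC was lost without trend and robust moderation (adjusted p = 0.0523).

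A list of 11 genes, for 14-3-3 proteins, which hold phosphorylated YAP and TAZ in the cytoplasm, and for proteins of their turnover, had 3 higher and 2 lower in Hdac1/2 cKD against NC, and 1 higher and 4 lower in Sin3a KD against NC, beside 15.6% and 7.96% of all tested genes called. For Hdac1/2 cKD the counts were 2 higher and 1 lower without NC replicate 3, without trend and robust moderation, and without the 2 libraries with a lane to themselves, and for Sin3a KD none was called without those 2 libraries, where 5 had an unadjusted p below 0.05, beside 16.8% of all tested genes. Ywhah, a 14-3-3 gene, averaged 2429.6 ± 189.6 in Hdac1/2 cKD, 812 ± 86.2 in Sin3a KD and 1449.7 ± 232 in NC. It was higher in Hdac1/2 cKD than in NC (log2 0.75, limma adjusted p = 0.00263), lower in Sin3a KD than in NC (log2 -0.83, limma adjusted p = 0.00495), and higher in Hdac1/2 cKD than in Sin3a KD (log2 1.58, limma adjusted p = 1.15e-05). The casein kinase genes Csnk1d and Csnk1e, whose products mark YAP and TAZ for degradation, moved apart in Hdac1/2 cKD against NC, by 0.98 (adjusted p = 0.000946) and -0.65 (adjusted p = 0.00176) on the log2 scale. Of 7 other TEAD partners 5 were tested, and 1 passed in each comparison with NC, beside 15.6% and 7.96% of all tested genes called. It was Ncoa2, a coactivator of the p160 family. Ncoa2 was higher in both Hdac1/2 cKD (log2 1.16, limma adjusted p = 0.00744) and Sin3a KD (log2 1.42, limma adjusted p = 0.00621) against the same NC libraries. Its means were 655 ± 39.7 in Hdac1/2 cKD, 824 ± 334 in Sin3a KD and 299 ± 74.4 in NC, with the widest spread in Sin3a KD. Without NC replicate 3, Ncoa3, named after its values were seen, was also lower in Hdac1/2 cKD. The calls in Sin3a KD against NC were lost without trend and robust moderation, with lane as a factor and when leaving out the 2 libraries with a lane to themselves, with an adjusted p of up to 0.0925 for Ywhah and 0.0647 for Ncoa2.

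Downstream, 16 of 24 symbols listed as YAP and TAZ targets in adult cells were tested, and these genes did not move one way. The list holds both the old and the new symbol of Cyr61 (Ccn1) and of Ctgf (Ccn2), so it stands for fewer than 24 genes. In Hdac1/2 cKD against NC, 4 were higher and 3 lower, beside 15.6% of all tested genes called. These counts were 3 higher and 3 lower without NC replicate 3, 1 higher and 1 lower without trend and robust moderation, and 2 higher and 1 lower without the 2 libraries with a lane to themselves. Amotl2 and Lats2, called lower, and Ptpn14, called higher, are also in the upstream list of Hippo genes. The upstream and downstream counts are therefore not separate. In Sin3a KD against NC, limma called none, while 5 had an unadjusted p below 0.05, beside 23.9% of all tested genes, and without NC replicate 3 the count was 1 lower, Lats2. In Hdac1/2 cKD against Sin3a KD, 1 was higher and 3 were lower, beside 17.3% of all tested genes called. Igfbp3, a growth factor binding protein gene, averaged 208 ± 54.9 in Hdac1/2 cKD, 25.6 ± 6.07 in Sin3a KD and 52.1 ± 12 in NC, with a log2 difference between the knockdowns of 2.97 (limma adjusted p = 0.000118). Lats2, a kinase gene that is also a YAP target, averaged 643 ± 76.4 in Hdac1/2 cKD and 1053 ± 143 in NC (log2 -0.71, limma adjusted p = 0.0153). The call of Lats2 was lost without trend and robust moderation, with lane as a factor, without the 2 libraries with a lane to themselves, and without NC replicate 1 or Hdac1/2 cKD replicate 1, with an adjusted p of up to 0.0692. Amotl2 was lower in Hdac1/2 cKD than in NC (log2 -0.48, limma adjusted p = 0.00781) and than in Sin3a KD (log2 -0.57, limma adjusted p = 0.00255). Its call against NC was lost only with lane as a factor (adjusted p = 0.0504), and that against Sin3a KD was kept in each alternative. Ctgf and Cyr61, well known targets of the list, were chosen for naming after their values were seen and did not pass in any comparison. Ctgf averaged 189.7 ± 28.4 in Hdac1/2 cKD, 256 ± 37.8 in Sin3a KD and 187 ± 19.1 in NC, and Cyr61 averaged 265 ± 24.2, 265 ± 30.9 and 352 ± 39.1.

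Of 8 embryo genes listed as lower in mouse Tead4 mutants, Hdac1/2 cKD against NC had 3 lower (Cdx2, Fgfr2 and Gata3), 1 higher (Cdh3) and 4 that did not pass, while Sin3a KD against NC had 2 lower (Krt8 and Krt18), beside 15.6% and 7.96% of all tested genes called. The count for Sin3a KD was 1 lower without NC replicate 3 and without the 2 libraries with a lane to themselves. The call of Krt18 was lost in both, with lane as a factor, without trend and robust moderation, and without NC replicate 1 or Sin3a KD replicate 3 (adjusted p up to 0.122), and that of Krt8 without trend and robust moderation (0.0523). Hdac1/2 cKD and Sin3a KD differed directly in Cdx2, a trophectoderm homeobox gene, with 178 ± 25.3 in Hdac1/2 cKD and 839 ± 174 in Sin3a KD (log2 -2.22, limma adjusted p = 1.32e-05). The same held for Gata3, a trophectoderm zinc finger gene, with 376 ± 35.8 in Hdac1/2 cKD and 818 ± 105 in Sin3a KD (log2 -1.12, limma adjusted p = 0.000295). The keratin gene Krt8 went the other way, with 1395 ± 199 in Hdac1/2 cKD and 472 ± 88.2 in Sin3a KD (log2 1.57, limma adjusted p = 0.000408). Cdh3, which encodes P-cadherin, averaged 263 ± 52.2 in Hdac1/2 cKD and 101 ± 38.7 in NC (log2 1.41, limma adjusted p = 0.00447). Of 3 genes listed for inner cells, Pou5f1 was lower in Hdac1/2 cKD than in NC (log2 -0.33, limma adjusted p = 0.014). Nanog was lower in Sin3a KD than in NC (log2 -1.12, limma adjusted p = 0.0194). Sox2, with low group means of 12.8 to 25.1, did not pass in either. Over all tested genes, 15.6% and 7.96% were called in these comparisons. The same 3 genes are among the morula markers above, so their levels do not stand for inner cells alone. The call of Pou5f1 was lost with libraries scaled to equal totals and without Hdac1/2 cKD replicate 1 (adjusted p up to 0.0982), and that of Nanog without NC replicate 3 and without Sin3a KD replicate 1 or 3 (up to 0.0942). Both were also lost with lane as a factor, without trend and robust moderation and without the 2 libraries with a lane to themselves. In bulk embryos, fewer cells of a type and less RNA per cell cannot be told apart. Under moderation without trend and robust settings limma called none of the tested genes of these upstream, partner and downstream lists in Sin3a KD against NC, where it called 36 genes in all, and 1 to 9 genes of each list had an unadjusted p below 0.05, beside 22.2% of all tested genes.

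**Figure D4:**
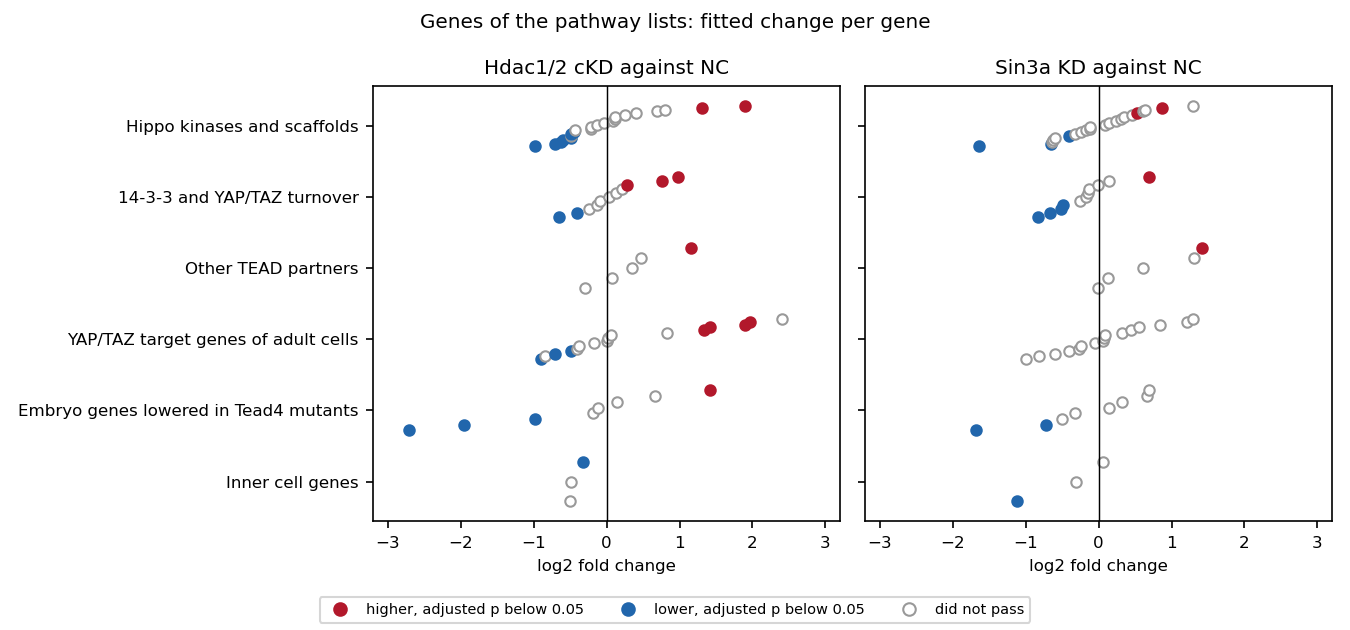
Fitted log2 fold change against NC (horizontal axes) of each tested gene in 6 lists, in Hdac1/2 cKD (left) and Sin3a KD (right), with filled points for an adjusted p below 0.05. Most lists hold genes on both sides of 0, and the lowest point is Cdx2, at -2.72 in Hdac1/2 cKD.

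The genes whose log2 values were most like those of each of the 7 over the 9 libraries were picked by Pearson's r among tested genes. The 7 genes themselves and gene models named Gm plus digits or ending in Rik were left out of the ranking. The r values are a description of genes chosen for high r, and all points share the 3 groups and the library scaling. For Tead2 they were Dctn2 (r = 0.99), Prr5 (0.988) and Efna2 (0.975), and Efna2, an ephrin ligand gene, averaged 755 in Hdac1/2 cKD, 273 in Sin3a KD and 309.9 in NC. For Wwtr1 they were Tmem159 (0.985), Bmp6 (0.981) and Snx22 (0.981). Bmp6, a bone morphogenetic protein gene, averaged 18.4 in Hdac1/2 cKD, 54.3 in Sin3a KD and 36.6 in NC. For Tead4 they were Slc25a38 (0.983), Spint1 (0.981) and Zfp622 (0.98), and for Vgll4 Stk35 (0.988), Fam109a (0.983) and Epas1 (0.976). Epas1, which encodes a hypoxia-inducible factor, averaged 3452 in Hdac1/2 cKD, 5634 in Sin3a KD and 4004 in NC. Those of Tead3 were Vwa1 (0.985), Sik1 (0.973) and Dagla (0.958), those of Tead1 were Slc26a6 (0.943), Fbxw8 (0.939) and Mtrf1l (0.927), and those of Yap1 were Glg1 (0.941), Pik3c2b (0.915) and Arid1a (0.914).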

How the data were processed

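Per the submitters' processing notes, Salmon and DESeq2 were used with build GRCm38; their versions and annotation were not given in the sources used here. Deposited signal values are gene counts that the authors divided by DESeq2 factors. Per the labels, polyadenylated RNA went into an NEBNext library, and copies of RFP and GFP RNA were spiked in. Whether the spike entered those factors was not examined. If it did not, altered RNA content of an embryo would not show. The strand setting of counting is not stated. Within 0.1 of a whole step, 54.6% to 72.4% of low values were found per library, so whole reads were not recovered and depth is an estimate. A line without a name (0.00543% to 0.00896% of a library) was left out. Its share was highest in Hdac1/2 cKD and lowest in NC libraries, without overlap between groups, and what it holds was not examined.

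A gene was tested if 3 or more of 9 libraries reached a value of 10 (13343 genes). Tests ran on log2(value + 1), which understates changes of low values, in limma 3.58.1 under R 4.3.3, with trend and robust moderation, 1 mean per group and 6 residual degrees of freedom. P-values were adjusted by Benjamini-Hochberg over all tested genes, and called below 0.05. All 7 genes passed the filter. Sequencing lanes from the descriptions were 2, 2 and 3 for Hdac1/2 cKD, 4, 3 and 3 for Sin3a KD, and 5, 2 and 3 for NC. Ratios were tested by exact permutation (scipy 1.17.1). Coordinates and exon lengths came from GENCODE vM21, where 19072 symbols (94.9%) matched exactly 1 gene. The fit was tested on simulated data. Alternatives were other pseudocounts, filters, scalings and moderation, 2 groups alone, lane, replicate number and each library left out.

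The genes and lists were chosen with earlier results of these data known. All 7 genes are named, with the 3 most similar genes of each among those ranked. Genes of a list were named mainly from its up to 4 called genes of lowest adjusted p in a comparison, or 2 where none passed. Not all of these are named. The lists were written from general knowledge, and examples shown are a selection from them.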

Additional observations from a re-analysis of the deposited data

Results flagged for a closer look

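Wwtr1 lay on opposite sides of NC in the knockdowns: all 3 Hdac1/2 cKD libraries lay below every NC library and all 3 Sin3a KD libraries lay above every NC library. The effects of the knockdowns against NC share the NC libraries, and their difference equals the direct comparison of Hdac1/2 cKD with Sin3a KD, a log2 value of -1.14 (limma adjusted p = 2.47e-05). The value lay between -1.18 and -1.06 over 20 alternatives, with adjusted p-values of 1.06e-05 to 0.00366. Sin3a KD against NC alone did not pass (adjusted p = 0.0626). Groups of 3 libraries are too small for a test of single outlying libraries.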

How the results depend on the processing

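Of 21 results (7 genes in 3 comparisons), 10 were called, and 6 of these kept their call under each of 20 alternatives: Tead2, Tead4 and Wwtr1 in Hdac1/2 cKD against NC, and Tead2, Wwtr1 and Vgll4 in Hdac1/2 cKD against Sin3a KD. Without NC replicate 3, 9 of the 10 kept it. Without trend and robust moderation, calls were lost for Tead3 in Hdac1/2 cKD (adjusted p = 0.056) and Sin3a KD (0.0799) against NC, for Vgll4 in Sin3a KD against NC (0.0903) and for Tead4 between the knockdowns (0.0716). For Sin3a KD against NC, Vgll4 was also lost with only 2 groups fitted (0.0509), and Tead3 (0.0797) and Vgll4 (0.117) without NC replicate 1 and Sin3a KD replicate 1, the 2 libraries with a lane to themselves. The genes called among the 7 in Sin3a KD against NC were 0 without trend and robust moderation (3 at an unadjusted p below 0.05, beside 22.2% of all tested genes), 1 with 2 groups, 1 with lane as a factor, 0 without those 2 libraries (4 unadjusted, beside 16.8%), and 0 to 2 with 1 library left out.

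Values that turned their sign were all uncalled. In Sin3a KD against NC, Tead2 was 0.13 with lane as a factor, 0.24 without the 2 libraries and -0.476 to 0.0412 (highest without NC replicate 1) with 1 library left out. Tead4 was -0.235 to 0.0105 (highest without NC replicate 1) with 1 left out, and Yap1 was 0.00304 with equal totals, 0.0329 with lane and 0.0192 without the 2 libraries. In Hdac1/2 cKD against Sin3a KD, Tead1 was -0.0267 with lane and -0.0522 to 0.135 with 1 left out (below 0 without Hdac1/2 cKD replicate 2 or Sin3a KD replicate 3), and Tead3 was -0.356 to 0.0842 with 1 left out (above 0 without Hdac1/2 cKD replicate 3). The log2 ratio of Tead2 to Tead4 in Sin3a KD against NC was -0.424 to 0.203 with 1 left out (above 0 without Sin3a KD replicate 1 or NC replicate 1). With the longest transcript as length, 4 of the 7 genes kept their rank per kilobase in Sin3a KD.

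Genes called over the whole table in Hdac1/2 cKD against NC, 2083, became 1369 without trend and robust moderation, 1318 without the 2 libraries and 1271 to 2170 with 1 library left out. In Sin3a KD against NC, 1062 became 36 without trend and robust moderation, 611 with 2 groups, 94 with lane, 51 without the 2 libraries and 337 to 1538 with 1 left out. In Hdac1/2 cKD against Sin3a KD, 2304 became 1002 with lane, 1384 without the 2 libraries and 1426 to 2748 with 1 left out. The cause of these shifts was not tested. The lane and left-out fits compare fewer libraries, while the fit without trend and robust moderation kept every library. With 1 left out, the count in Sin3a KD against NC fell to 337 without Sin3a KD replicate 3. It rose to 1538 without NC replicate 2. Scaling to equal totals put the median of all genes at 0.15 in place of 0.03 in Hdac1/2 cKD against NC, and the split of calls at 1387 higher and 676 lower in place of 1042 and 1041. In Sin3a KD against NC the split was 744 higher and 427 lower in place of 480 and 582.

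With the replicate number as a block, all 21 results stayed on the same side of the threshold, and 2140, 1046 and 2372 genes were called in the 3 comparisons. The deviations of libraries with the same number from their group means had correlations of -0.0193 to 0.0581. In Hdac1/2 cKD against NC the library of the same number gave the highest correlation for every replicate. It did so only for replicate 1 in Sin3a KD against NC, and only for replicate 2 between the knockdowns. Whether the numbers pair the libraries cannot be told from these values, since the labels do not say and lane and depth also differ. Counting error, relative to the value, weighs more on Tead3 and Tead2 than on the other 5 genes, since they had the lowest values in each group.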
